A study of Ovis aries with 30 samples.

Results

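Muscle transcripts were followed in epicardial adipose tissue (EAT), the fat that lies directly on the heart muscle, of 30 sheep. The 10 genes comprise 3 transcripts of heart and slow muscle, namely MB (myoglobin), TPM1 (tropomyosin 1) and OMYHCS (the name given in the files to the ovine slow myosin heavy chain), 4 transcripts of fast skeletal muscle, namely TNNC2 (fast skeletal troponin C), MYL11 (fast regulatory light chain), OMYHC2A and OMYHC2X (fast myosin heavy chains 2A and 2X), and 3 regulators, namely MYOD1, MYF5 and MSTN (myostatin). They were found by gene name or by full name in the probe descriptions, and they are 10 of the 1026 different gene names on the array and 17 of its 15008 probes. The genes were chosen by the spread of their own intensities between these animals, so the spreads given here are a description and carry no test.

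The 4 groups were 8 term fetuses of untreated ewes (Control fetuses), 6 term fetuses of ewes given cortisol at 1 mg/kg/day (CORT fetuses), 7 lambs of untreated ewes at 2 weeks of age (Control lambs) and 9 lambs of the same age whose mothers had received 0.5 mg/kg/day (CORT lambs). Cortisol was given to the ewe from gestational day 115 until term, and no fetus or lamb was itself treated. The doses differed between the ages, and the lambs had been born naturally while the fetuses had not been born. The paper describes infusion overnight only for the ewes of the lambs, and continuous infusion in its other studies at 1 mg/kg/day. Each animal had 1 array, and p-values measure the spread between these animals. The labels do not say which animals shared a mother, although the methods mention a pair of twins in each lamb treatment. The tests treat every lamb as independent although the ewe was treated, so p-values involving lambs may be too small if twins were included.

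Myoglobin stores oxygen in heart muscle and in oxidative skeletal fibers. Troponin C is the calcium sensor of the thin filament, and vertebrates have a separate gene for the slow and cardiac form and for the fast skeletal form. Myosin heavy chains likewise come in slow and fast types, and the slow chain is also made by the heart. Heart muscle is not known to make fast troponin C, the fast light chain or the 2A and 2X heavy chains in quantity. MYOD1 and MYF5 start the program of skeletal muscle and not that of heart muscle. Tropomyosin 1 is less specific, since fast skeletal muscle, smooth muscle and many other cells make it too. It is listed here with the heart and slow transcripts but does not mark them alone.

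The probes show which members can be told apart. The probe sequences below, 5′ to 3′, are 60 bases each, and capitals mark the longest run that the 2A and 2X probes share.
OMYHC2A: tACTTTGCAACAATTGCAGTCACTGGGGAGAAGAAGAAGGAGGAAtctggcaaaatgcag
OMYHC2X: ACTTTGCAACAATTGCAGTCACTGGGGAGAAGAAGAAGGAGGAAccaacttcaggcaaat
OMYHCS: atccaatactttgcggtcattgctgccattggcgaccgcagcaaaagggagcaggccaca
TNNC2: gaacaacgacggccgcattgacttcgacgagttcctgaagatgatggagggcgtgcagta
The fast 2A and 2X probes have 44 bases in a row in common, so their values cannot be assigned to 2A or 2X separately. The longest run that the slow heavy chain probe shares with the 2A probe is 8 bases, and for the TNNC2 probe it is 6 bases. The paired probes of MB, TNNC2, OMYHC2A, MYOD1 and MYF5 overlap by 59 bases within their gene and are repeats of a single measurement. The OMYHCS pair shares no run over 8 bases and the MSTN pair none over 5 bases. Over the 30 arrays the OMYHCS probes had a correlation of 0.99, and the MSTN probes a correlation of 0.08.

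Values are log2 intensities after background correction and quantile normalization, so a difference of 1 is a doubling, and levels are not compared between probes. The text gives the tested probe with the highest mean for each gene. Between 70.4% and 83.5% of spots per array were well above background in the scanner's own test, and no array had more than 1 saturated spot. Arrays of 1 group had correlations of 0.956 to 0.993 over all tested probes. Control fetus 2 stood apart from the 7 other Control fetuses, with correlations of 0.956 to 0.970 against 0.985 to 0.993 among the others, and results that rest on it are given with and without it. Of 35 marker genes of heart and slow muscle, 31 have no named probe here, among them the cardiac troponins and the natriuretic peptides, and were not analysed here. Of 14 adipocyte markers 9 have a named probe, including FABP4, PLIN1 and PPARG, and these were well above background on all 30 arrays. Most spots on every array were also well above background, so this is at most a weak check of the adipose label.

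MB was present in every animal and spread most in the lambs. Its log2 intensity in the 7 Control lambs was 9.61 at the lowest, 14.46 at the median and 16.89 at the highest, which is a 156-fold range. In the 9 CORT lambs it was 11.12, 14.44 and 15.81, a 25.6-fold range. In the 8 Control fetuses it was 12.98, 14.11 and 15.20, and in the 6 CORT fetuses 13.55, 14.50 and just under 16. Control lambs lay both above and below the whole range of the Control fetuses, and the CORT lambs reached below that of the CORT fetuses but not above it. By group mean the order was CORT fetuses at 14.55 ± 0.83 (SD, n = 6), Control fetuses at 14.08 ± 0.94 (SD, n = 8), CORT lambs at 13.91 ± 1.62 (SD, n = 9) and Control lambs at 13.60 ± 2.34 (SD, n = 7), and each step in that order was smaller than the spread within either neighbor.

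TPM1, a thin filament protein that lies along actin, spread in the same way. In the Control lambs its lowest, median and highest values were just under 12, 14.67 and 17.20, and in the CORT lambs they were 12.89, 15.12 and 16.80. In the Control fetuses they were 14.23, 15.20 and 16.35, and in the CORT fetuses 14.80, 15.87 and 16.77. The same Control lambs stood at both ends for both genes, with Control lamb 3 lowest and Control lamb 6 highest. The range over the animals was 36.9-fold in the Control lambs and 4.33-fold in the Control fetuses.

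OMYHCS, the motor protein of slow fibers and of the heart, had lower medians in both lamb groups than in both fetal groups. Its lowest, median and highest values were 6.54, 7.65 and 11.45 in the Control lambs and 6.64, 8.57 and 10.01 in the CORT lambs. In the Control fetuses they were 8.43, 9.51 and 10.85, and in the CORT fetuses 8.57, 10.07 and 11.31. It was well above background in all 14 fetuses and in 14 of 16 lambs, the exceptions being Control lamb 3 and CORT lamb 5, which also had the lowest MB of their groups. The groups overlapped. With the scanner's own background-subtracted signal the range in the Control lambs was 7.85 in place of 4.91, and in the CORT lambs 5.93 in place of 3.37.

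**Figure D1:**
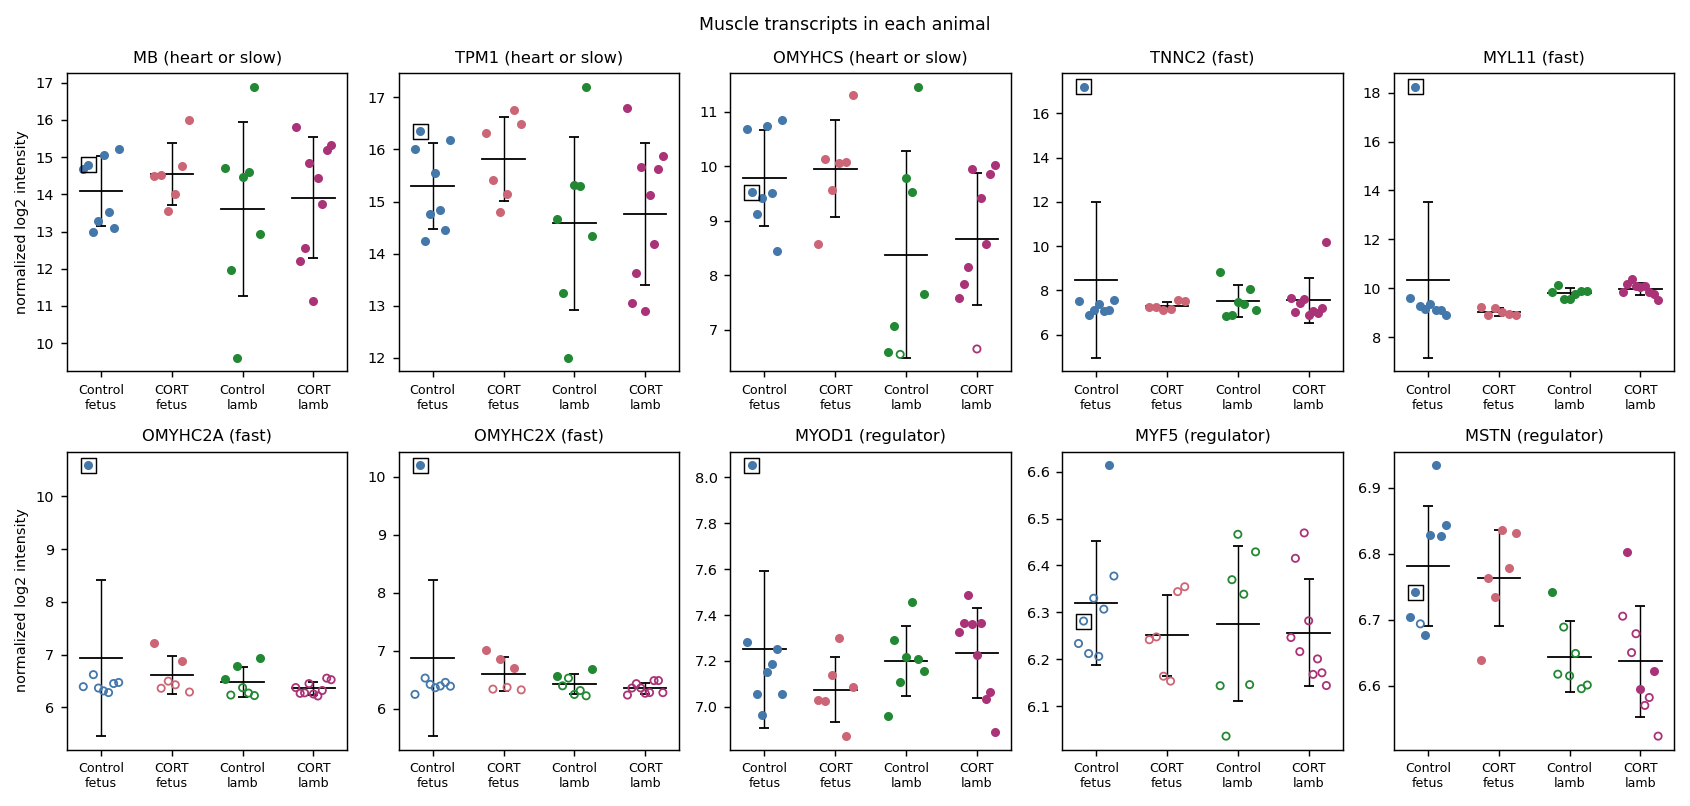
Normalized log2 intensity (y axis, a separate scale for each gene) of the 10 genes in each animal of the 4 groups (x axis). Points are animals, open points are not well above background, the line and bar are the group mean and SD, and the square marks Control fetus 2. MB, TPM1 and OMYHCS spread in all groups, with Control lambs from 9.61 to 16.89 for MB. The 4 fast genes are far higher in Control fetus 2 than in any other animal. TNNC2 is 17.20 there, and next highest in CORT lamb 9, at 10.17.

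The 3 heart and slow transcripts varied together over the animals of an age. MB and TPM1 had a Pearson r of 0.97 and a Spearman rho of 0.97 over the 16 lambs (permutation p = 1e-05 for both, the smallest that 100000 resamples can give; adjusted p = 8e-05 over the 8 relations computed). Over the 14 fetuses r was 0.88 (permutation p = 0.00013, adjusted p = 0.00052) and rho 0.86 (permutation p = 0.00014, adjusted p = 0.00056). Leaving out the 2 animals farthest from the median of MB gave r of 0.97 in the lambs and 0.85 in the fetuses. Within the single slides r was 0.96 and 0.98 in the lambs and 0.94 and 0.85 in the fetuses, so this relation held on each of the 4 slides (exact permutation p from 0.000149 to 0.0200, two-sided). The genes were chosen with these values known, so none of the 8 relations, nor its p-value, is independent evidence.

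MB and OMYHCS were also related, with the same limit that the genes were chosen with these values known. Over the 16 lambs r was 0.74 (permutation p = 0.00098, adjusted p = 0.00195) and rho 0.67 (permutation p = 0.00578, adjusted p = 0.00925), and over the 14 fetuses r was 0.77 (permutation p = 0.00122, adjusted p = 0.00195) and rho 0.84 (permutation p = 0.00039, adjusted p = 0.00104). Without the 2 farthest animals r was 0.63 in the lambs and 0.67 in the fetuses. The relation was not seen on every slide: r was 0.99 on the second lamb slide but 0.46 on the first (exact permutation p = 2.48e-05 and 0.251), and 0.95 on the second fetal slide but 0.36 on the first (exact permutation p = 0.000794 and 0.418). TPM1 and OMYHCS had r of 0.74 in the lambs (rho 0.74, permutation p = 0.00107 and 0.00173, adjusted p = 0.00195 and 0.00346) and of 0.50 in the fetuses (rho 0.56, permutation p = 0.0709 and 0.0399, adjusted p = 0.0946 and 0.0456). Without the 2 farthest animals these r were 0.59 and 0.47, and by slide they were 0.50 and 0.98 in the lambs and 0.10 and 0.76 in the fetuses.

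Particular lambs departed from the common course of the slow set, and they were picked out after their values were seen. Control lamb 1 had MB at 14.72, above the median of its group, with OMYHCS at 6.60, near the lowest. CORT lamb 1 had the highest MB and TPM1 of its group, at 15.81 and 16.80, with OMYHCS at 7.58, below the group median of 8.57. Both lambs were hybridised on the first lamb slide. In Control lamb 6 all 3 transcripts were the highest of the group, with OMYHCS at 11.45.

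**Figure D2:**
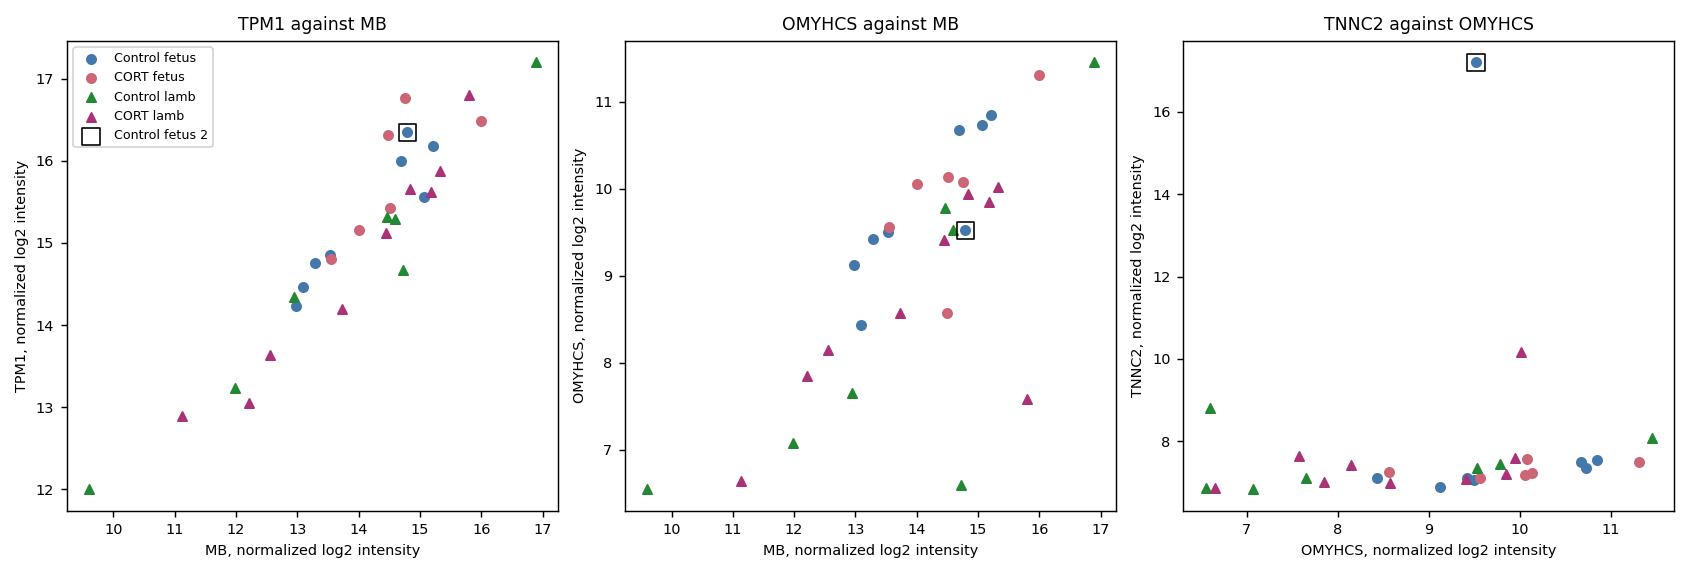
Normalized log2 intensity of TPM1 against MB (left), of OMYHCS against MB (middle) and of TNNC2 against OMYHCS (right), with 1 point per animal, circles for fetuses, triangles for lambs and a square around Control fetus 2. TPM1 follows MB closely in both ages (r of 0.88 in fetuses and 0.97 in lambs), OMYHCS follows it with Control lamb 1, CORT lamb 1 and CORT fetus 1 below the course of the rest, and TNNC2 is between 6.84 and 7.65 in all but 4 animals.

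Among 876 other named genes with a tested probe, the 5 most like MB held 3 genes of muscle energy supply. Likeness was measured as Pearson r over the 30 arrays after each group's mean was taken off, which is a description. The 5 highest were ENO3 (muscle enolase, a glycolytic enzyme) at 0.91, SLC25A4 (the ADP/ATP carrier of heart and muscle mitochondria) at 0.91, PYGM (muscle glycogen phosphorylase) at 0.89, FGF1 (a growth factor) at 0.89 and BMP7 (a secreted factor of the BMP family) at 0.87. Without Control fetus 2 these r were 0.96, 0.91, 0.93, 0.89 and 0.87. ENO3 and PYGM had been listed with fast skeletal muscle, but over the lambs they moved with MB: ENO3 was 7.03 in Control lamb 3 and 12.30 in Control lamb 6, and PYGM 7.10 and 11.59. CRYAB, a small heat shock protein abundant in heart and skeletal muscle, had r of 0.80 with MB, and FBXO32, a muscle ubiquitin ligase, 0.56. FHL1, CAPN3 and the nebulin probe had r between -0.03 and 0.05 with MB over the 30 arrays. CAPN3 and nebulin were by far highest in Control fetus 2, and their r with MB without it is not given. Of the 9 adipocyte markers, 8 had r below 0 with MB, from -0.17 for FASN to -0.59 for PPARG, and PLIN2 was at 0.01. In bulk tissue fewer cells of a type and less RNA per cell cannot be told apart.

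**Figure D3:**
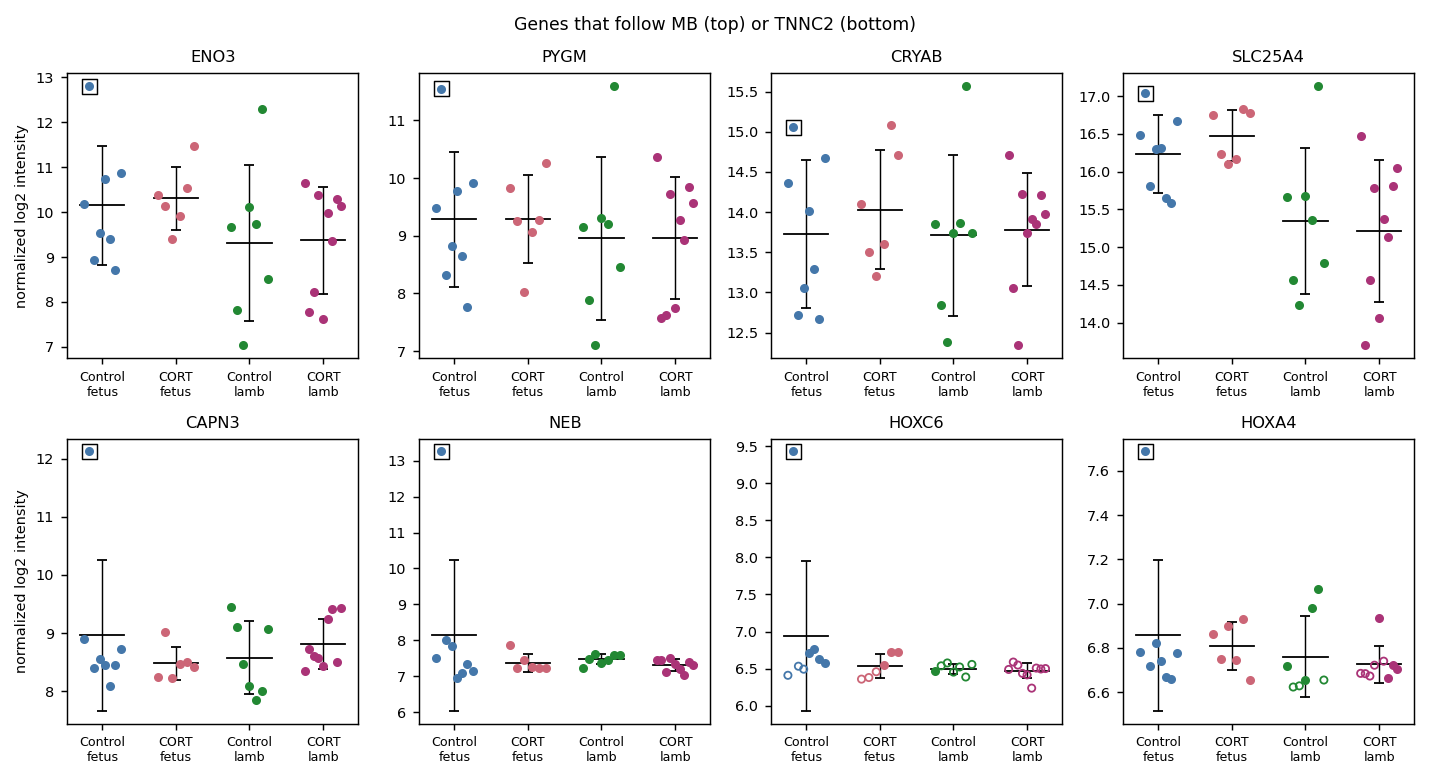
Normalized log2 intensity (y axis, a separate scale for each gene) in each animal of the 4 groups (x axis) for 4 genes that follow MB (ENO3, PYGM, CRYAB, SLC25A4) and 4 that follow TNNC2 (CAPN3, NEB, HOXC6, HOXA4). Symbols are as in the plot of muscle transcripts by animal. SLC25A4, ENO3 and PYGM are also highest of the Control fetuses in Control fetus 2. ENO3 spreads from 7.03 to 12.30 in the Control lambs, while NEB lies between 6.95 and 8.00 in every fetus other than Control fetus 2, where it is 13.25.

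The fast skeletal transcripts were far higher in 1 animal than in all others. TNNC2 was 17.20 in Control fetus 2, and in the 7 other Control fetuses it was 6.90 at the lowest, 7.12 at the median and 7.55 at the highest. In the CORT fetuses its lowest, median and highest values were 7.12, 7.24 and 7.57. Control fetus 2 thus lay 9.64 above the highest other fetus, a 797-fold difference in normalized intensity, and its second TNNC2 probe gave 16.84 against at most 7.61. The offset added to every intensity raises low values, so that folds over dim probes are understated.

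MYL11, the light chain that regulates fast myosin, was 18.24 in Control fetus 2. In the other Control fetuses its lowest, median and highest values were 8.91, 9.16 and 9.61, and in the CORT fetuses 8.89, 8.98 and 9.23. The gap to the highest other fetus was 8.63, or 395-fold. OMYHC2A was 10.59 and OMYHC2X 10.20 in this animal, against at most 6.62 and 6.53 in the other Control fetuses, none of which was well above background for either probe. All 4 fast transcripts therefore set the same animal apart.

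MB and OMYHCS did not set Control fetus 2 apart, and the less specific TPM1 lay below the highest other fetus. Its MB of 14.79 was 1.25 above the median of the other Control fetuses and 1.21 below the highest fetus. Its OMYHCS of 9.52 was within 0.02 of that median, and the second OMYHCS probe, at 9.27, was within 0.14. Its TPM1 of 16.35 was the highest of the Control fetuses, against 16.19 in the next, and 0.41 below the highest CORT fetus. The 2 kinds of muscle transcript thus diverged in this animal by several log2 units.

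Outside Control fetus 2 the fast transcripts stood higher in a few animals, by far less than in that fetus. TNNC2 was 10.17 in CORT lamb 9, against at most 7.65 in the other CORT lambs, while MYL11 in this lamb was 9.50, the lowest of the 16 lambs, and OMYHC2A and OMYHC2X were not well above background. Control lamb 1 had TNNC2 at 8.82 and Control lamb 6 at 8.08, against 6.84 to 7.45 in the other Control lambs. In Control lamb 1 OMYHC2A (6.54) and OMYHC2X (6.57) were well above background too, while MYL11 (9.85) was at the median of its group. Other Control lambs went the other way. Control lamb 7 had OMYHC2A at 6.94 and OMYHC2X at 6.69, both well above background, with TNNC2 at 7.12. Control lamb 3 had OMYHC2A at 6.79, well above background, with TNNC2 at 6.87. Control lamb 6 had the lowest OMYHC2A and OMYHC2X of its group, both at 6.22. Among the CORT fetuses, fetus 1 had OMYHC2A at 7.23 and OMYHC2X at 7.02, with TNNC2 at 7.26, inside the range of the other fetuses, and MYL11 at 9.23, the highest of the CORT fetuses. CORT fetus 5 had OMYHC2A at 6.88 and OMYHC2X at 6.69, both well above background, with TNNC2 at 7.57, the highest of its group by this probe but not by the second (7.19), and MYL11 at 8.93. OMYHC2A was well above background in 3 of 14 fetuses and 3 of 16 lambs, and OMYHC2X in 4 of 14 and 2 of 16. None of the 9 CORT lambs had either probe well above background, against 3 and 2 of the 7 Control lambs, and these counts are not separate. The scanner's test did not follow intensity alone: OMYHC2A passed it in Control lamb 1 at 6.54 but not in CORT lamb 8 at 6.55. By intensity CORT lambs differed by -0.12 for OMYHC2A and -0.07 for OMYHC2X (exact permutation p = 0.279 and 0.32). No bound on the fold is given for these probes because it fell under 1.

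OMYHCS and TNNC2, the slow and fast members set against each other, had a Pearson r of 0.32 in the lambs (permutation p = 0.237, adjusted p = 0.27), with rho at 0.51 (permutation p = 0.0485, adjusted p = 0.0485). Without the 2 farthest lambs r was 0.22, and by slide it was -0.04 and 0.50. In the 14 fetuses r was -0.06 (permutation p = 0.955, adjusted p = 0.955) and rho 0.61 (permutation p = 0.0224, adjusted p = 0.0299), and r was 0.72 over the 13 fetuses without Control fetus 2 (permutation p = 0.00664, adjusted p = 0.00885 over the 4 fetal relations; chosen after the values were seen). TNNC2 lay between 6.90 and 7.57 in those 13. The fetal r without the 2 farthest animals was -0.10, and by slide it was -0.01 and 0.74. The fetal value therefore turned on 1 animal, and these genes, too, were chosen with their values known.

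Beside the members, 86 tested probes lay more than 1 log2 unit above every other fetus in Control fetus 2, and 32 of them more than 2 units, including 5 member probes and 23 probes with no gene name. In the other 13 fetuses at most 19 probes did so by 1 unit and at most 2 by 2 units. In lambs the corresponding counts were at most 50 and at most 5, both in CORT lamb 9, which was the lamb with the high TNNC2.

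The named genes farthest above the rest of the group in Control fetus 2 included 3 muscle genes among 5. NEB, nebulin, the giant ruler protein of skeletal thin filaments (identified here only by its probe description), was 13.25 against a median of 7.35 and a maximum of 8.00 in the other Control fetuses. CAPN3, the calpain of skeletal muscle, was 12.13 against 8.45 and 8.91. ENO3 was 12.80 against 9.54 and 10.86. HOXC6, a homeobox factor that marks position along the trunk, was 9.43 against 6.58 and 6.76, and at most 6.59 in any lamb. ALB (albumin) was 11.14 against a median of 7.89, but another Control fetus had 13.72, so that it did not mark this animal.

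The same genes led the likeness to TNNC2, where 1 animal carries most of the measure. The 5 highest r over the 30 arrays were HOXC6 at 0.92, NEB at 0.90, CAPN3 at 0.84, CSNK1D (a widely made protein kinase) at 0.82 and HOXA4 (a second homeobox factor) at 0.80. Without Control fetus 2 they were 0.53, 0.45, 0.48, 0.41 and 0.34. HOXA4 was 7.69 in that animal, against at most 6.93 in the CORT fetuses and 7.07 in the lambs.

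Adipocyte markers were lower in Control fetus 2 than in the other Control fetuses for most of the list. SCD, the desaturase of fat synthesis, was 9.09 against a lowest value of 10.67 in the others. PLIN1, which coats lipid droplets, was 8.81 against 9.50, and LEP (leptin) 7.67 against 8.06. PPARG, the master factor of adipocytes, was 13.85 against 14.23. In all, 7 of the 9 markers lay below every other Control fetus, UCP1 (14.59) lay within their range, and FABP4 (14.24) lay above their highest value of 13.82. The mean log2 intensity over the 9 markers was just under 11 in this animal, the lowest of its group, with a group median of 11.61 and a highest of 11.87. The share of all tested probes for which this animal lay below every other Control fetus is not given here. Its array was also the least like its group, so the count is not particular to adipocyte markers. The part of these values in the fast muscle result was not tested.

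**Figure D4:**
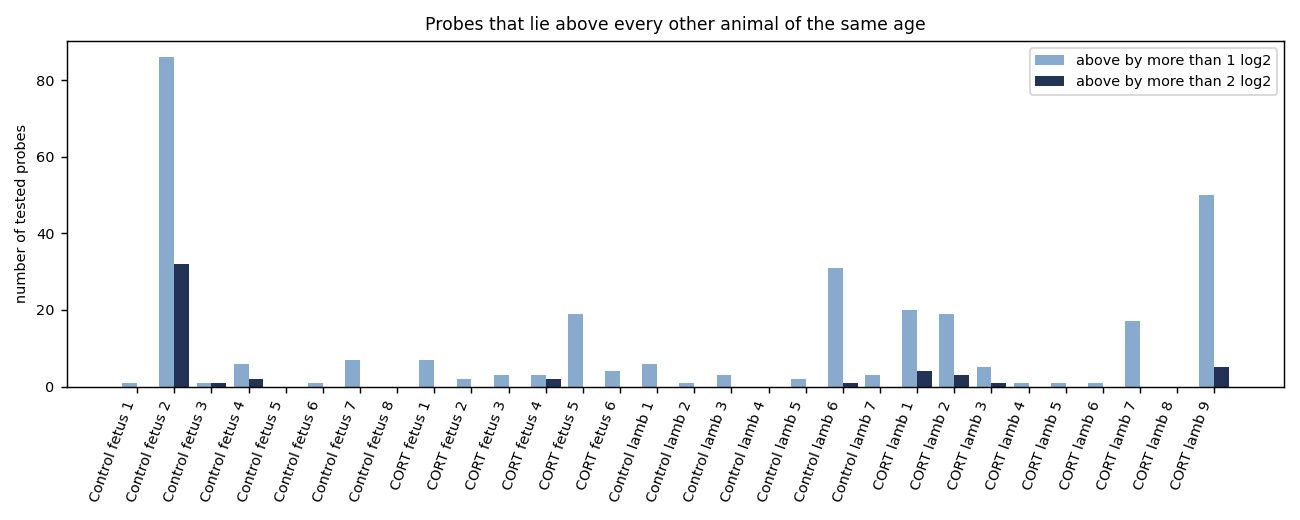
Number of tested probes (y axis, from 0) that lie above every other animal of the same age by more than 1 log2 unit (light bars) or 2 units (dark bars), for each of the 30 animals (x axis). Control fetus 2 has 86 and 32, against at most 19 and 2 in the other fetuses, and CORT lamb 9 has 50 and 5.

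The regulators of skeletal muscle had dim probes. MYOD1, the factor that commits cells to the skeletal muscle fate, was well above background on all 30 arrays but at low intensity. It was 8.05 in Control fetus 2, and in the other Control fetuses its lowest, median and highest values were 6.96, 7.15 and 7.28. Its group means were 7.08 ± 0.14 (SD, n = 6) in CORT fetuses, 7.20 ± 0.15 (SD, n = 7) in Control lambs and 7.24 ± 0.20 (SD, n = 9) in CORT lambs. MYF5, its close relative, was not tested: 1 of its probes was well above background in 1 animal, Control fetus 7, and the other in none. In Control fetus 2 MYF5 was 6.28, inside the range of 6.21 to 6.61 of the other Control fetuses.

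MSTN, the secreted inhibitor of muscle growth, was likewise dim. Its tested probe was well above background in 13 of 14 fetuses and in 4 of 16 lambs, with all values between 6.52 and 6.93. Its second probe, which did not pass the brightness filter, was well above background only in Control fetus 2, at 6.72 against at most 6.47 in any other fetus. The first probe gave 6.74 in this animal, within the range of its group.

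The first question of the design, whether maternal cortisol altered the tissue, was asked within each age. No member passed the adjusted threshold of 0.05 in the lambs, where limma called 0 of 12872 tested probes (0% called; 458 probes, or 3.56%, had an unadjusted p under 0.05). MB was 0.32 higher in CORT than in Control lambs (SE 0.89, exact permutation p = 0.754), TPM1 0.18 (SE 0.68, p = 0.812) and OMYHCS 0.29 (SE 0.70, p = 0.711). The direction of all 3 differed between the slides: MB was 1.16 higher in CORT lambs on the first lamb slide and 0.85 lower on the second, TPM1 0.98 higher and 0.87 lower, and OMYHCS 0.88 higher and 0.65 lower. TNNC2 differed by 0.05 (SE 0.41, exact permutation p = 0.923), and without CORT lamb 9 the difference was -0.27. MYL11 was 0.16 higher (SE 0.11, exact permutation p = 0.180), and 0.33 and 0.01 higher within the slides. The median change of the 9 tested members was 0.05, against a median of -0.001 over all tested probes.

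In the fetuses, too, limma called no member and no probe (0% called; 305 probes, or 2.37%, had an unadjusted p under 0.05, and 0.0155% had groups that did not overlap). MB was 0.47 higher in CORT than in Control fetuses (SE 0.44, exact permutation p = 0.343), by 0.25 on the first fetal slide and 0.70 on the second. TPM1 was 0.53 higher (SE 0.40, exact permutation p = 0.248), by 0.18 and 0.87 on the slides. OMYHCS was 0.17 higher (SE 0.43, exact permutation p = 0.719), and its direction differed between the slides, with -0.26 on the first and 0.60 on the second. The fast genes had lower means, with a difference of -1.17 for TNNC2 (SE 1.32, exact permutation p = 0.845) and -1.32 for MYL11 (SE 1.19, exact permutation p = 0.447), and both differences were set by Control fetus 2. Without it they were 0.07 (SE 0.11) and -0.19 (SE 0.10), with an adjusted p of 0.997 for both, and OMYHC2A and OMYHC2X turned from -0.32 and -0.27 to 0.20 and 0.20. The median change of the 9 tested members was -0.18 with all fetuses, against -0.01 over all probes.

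Whether the effect of cortisol differed between the ages was tested as the effect in lambs less that in fetuses. The different doses, and possibly infusion schedules, cannot be told apart from age here. Limma called none of the 9 members and none of the 12872 probes (0% called; 264, or 2.05%, had an unadjusted p under 0.05), and the lowest unadjusted p of a member was 0.211. Control fetus 2 set the estimates of the fast genes: MYL11 had a difference of 1.48 (SE 1.16) with it and 0.35 (SE 0.16) without it, TNNC2 1.22 (SE 1.36) and -0.02 (SE 0.49), OMYHC2A 0.20 (SE 0.56) and -0.32 (SE 0.17), and OMYHC2X 0.20 (SE 0.50) and -0.27 (SE 0.13). Without it limma again called no member and no probe, with an adjusted p of 0.999 for each of these 4.

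The second question was how the transcripts of untreated animals differed between term and 2 weeks after birth. Each age was hybridised on 2 slides of its own, so age and slide cannot be told apart. Of the tested probes 41.6% passed the adjusted threshold (5352 of 12872, with 20.3% higher and 21.3% lower in lambs; 48.7% had an unadjusted p under 0.05), and 1 of the 9 tested members did. That member was MSTN, which was 0.14 lower in Control lambs (SE 0.05, limma adjusted p = 0.0373; exact permutation p = 0.00482), and was well above background in 7 of 8 Control fetuses but in 1 of 7 Control lambs. The call was lost in 9 of the 15 fits that left out 1 animal, and with slide as a random block (adjusted p = 0.0699), and the change was 0.12 in the other direction with 75th percentile scaling.

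OMYHCS had the largest estimated difference of the 9 members. It was 8.38 ± 1.89 (SD, n = 7) in Control lambs and 9.78 ± 0.88 (SD, n = 8) in Control fetuses, a change of -1.40 (SE 0.67, limma adjusted p = 0.108; exact permutation p = 0.0844), and its second probe gave -1.28 (SE 0.60, adjusted p = 0.101). It passed in 1 of the 15 fits that left out 1 animal. That was the fit without Control lamb 6, which had the highest value, at -1.92 (SE 0.56, limma adjusted p = 0.0118). In the 14 other fits the change ran from -1.64 to -1.10, with limma adjusted p from 0.0744 to 0.214. MB differed by -0.48 (SE 0.81, adjusted p = 0.668) and TPM1 by -0.72 (SE 0.60, adjusted p = 0.362). The groups overlapped for every member, whereas 15.9% of all tested probes had groups that did not overlap.

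Control fetus 2 decided the fast genes here as well. With all animals TNNC2 differed by -0.97 (SE 1.23, limma adjusted p = 0.563) and MYL11 by -0.54 (SE 1.1, adjusted p = 0.727). That fetus was left out after its values were seen, MYL11 and TNNC2 among them, so the fits without it are a description. Without that fetus TNNC2 differed by 0.28 (SE 0.26, adjusted p = 0.416). MYL11 was then 9.81 ± 0.20 (SD, n = 7) in Control lambs and 9.22 ± 0.22 (SD, n = 7) in Control fetuses, 0.59 higher in lambs (SE 0.11, limma adjusted p = 0.000374), in a comparison in which 42.5% of probes were called, 20.8% higher and 21.7% lower. In the CORT animals it was 8.89 to 9.23 in the 6 fetuses and 9.50 to 10.36 in the 9 lambs. These groups also differed in dose and slide. The share of all probes without overlap is not given for them, and between the Control groups it was 15.9%.

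**Figure D5:**
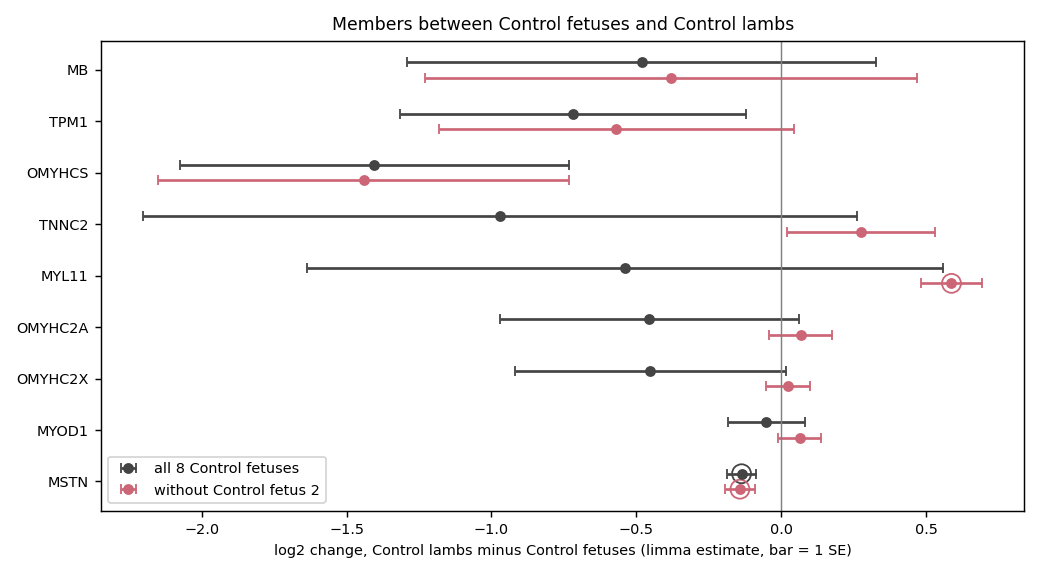
Limma estimate of the log2 change (x axis, Control lambs minus Control fetuses, bars of 1 SE) for the 9 tested members (y axis), with all 8 Control fetuses (dark) and without Control fetus 2 (red). Rings mark an adjusted p under 0.05. The 4 fast genes lie below 0 with all animals and above 0 without Control fetus 2, and MYL11 is then at 0.59 with a ring. That fetus was left out after its values were seen.

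Other genes of the muscle lists were read in the same fits. Of the fast skeletal list 7 of 23 genes were tested. With all animals none passed between Control fetuses and lambs, with a median change of -0.46 against -0.01 over all probes. The fits without Control fetus 2, which was left out after its values were seen, are a description. In them the changes were 0.59 for MYL11 (limma adjusted p = 0.000374), 0.28 for TNNC2, 0.07 for OMYHC2A and 0.06 for CAPN3. They were 0.02 for OMYHC2X, -0.0036 for PYGM and -0.46 for ENO3, so the lower median rested on that fetus. Of the list common to slow and fast muscle 4 of 20 were tested and none passed. FHL1, a LIM protein of striated muscle, differed by 0.55 (SE 0.23, limma adjusted p = 0.0739), and by 0.75 (SE 0.13, adjusted p = 0.000331) without Control fetus 2. Of the regulator list 7 of 19 were tested, of which 1 rose and 3 fell, in a comparison in which 41.6% of all probes were called, 20.3% higher and 21.3% lower. IGF1, a growth factor, rose by 1.21 (SE 0.22, adjusted p = 0.000349). FST (follistatin, which binds myostatin) fell by 0.73 (SE 0.14, adjusted p = 0.000400), and PPARGC1A, a coactivator of mitochondrial genes, fell by 1.26 (SE 0.15, adjusted p = 8.71e-06). The fourth was MSTN.

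Of the 2 tested smooth muscle genes MYLK (myosin light chain kinase) fell by 0.54 (SE 0.19, limma adjusted p = 0.0286), and CNN1 (calponin) differed by 0.04 (SE 0.50, adjusted p = 0.960). Of the 9 adipocyte genes 3 rose and 1 fell, a share near the 41.6% of all probes called, among them LPL with a rise of 1.81 (SE 0.19, adjusted p = 2.39e-06) and UCP1 with a fall of 4.19 (SE 0.35, adjusted p = 1.68e-07). In both cortisol comparisons limma called no gene of any of the 6 lists. For ADRB1, the cardiac beta receptor and the only heart gene tested outside the members, the change between Control fetuses and lambs was -0.04 (SE 0.09, adjusted p = 0.751).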

How the data were processed

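Total RNA of EAT was labeled with Cy3, per the labels, and hybridised to a 1-color Agilent sheep array, and the authors deposited scanner files of spot intensity made with Agilent Feature Extraction 10.1.1.1. A deposited matrix of log2 values of the same arrays was checked against them: its lamb columns had a rank correlation with the scanner values of 1.00 (its centring is not given in the sources used here), while its 14 fetal columns had correlations of -0.008 to -0.004 and were not used. Mean signal and median background of each spot were corrected with normexp (offset 50) and quantile normalized over the 30 arrays in limma 3.58.1 (R 4.3.3). Probes 10% above the 95th percentile of 77 negative control spots on at least 6 arrays were tested (12872 of 15008), including 13 of 17 member probes and 9 of 10 member genes. Outlier spots, 3 to 17 per array, were left out. Groups came from the sample labels. Each comparison used limma with empirical Bayes on its own groups (all 4 for the difference of effects), with Benjamini-Hochberg adjustment over all tested probes and a threshold of 0.05. Correlations and exact tests were computed in Python 3.11.15.

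The number of arrays limits the precision. The members and lists were chosen with earlier results of these data known. Named are the members, every tested gene of the lists, the 5 genes most like MB and TNNC2, and the 5 genes farthest above the group in an animal more than 3 log2 units from its group. Arrays lay on 4 slides, 2 for each age. Names came from the files and were updated through RefSeq for ARS-UI_Ramb_v3.0; 1658 probes had a name, and no coordinates are given. The fits were tested on simulated data. Alternatives were other background and scaling methods, no filter, blocks for slide and replicate number, all arrays in the fit, robust empirical Bayes, the mean of a gene's probes, the lamb matrix, and each animal left out.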

Additional observations from a re-analysis of the deposited data

Results flagged for a closer look

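Dixon's ratio, the gap between the extreme animal and its neighbor divided by the range of the group, was computed for 40 sets of values (10 genes in 4 groups), and 7 lay beyond the 95% limit. Chance gives about 1 in 20 for genes not chosen by their spread, as these were, so the ratios are a description with no test, and OMYHC2A and OMYHC2X are not separate measurements. In Control fetus 2 the ratio was 0.937 for TNNC2, 0.929 for OMYHC2X, 0.924 for MYL11, 0.921 for OMYHC2A and 0.709 for MYOD1, against a limit of 0.526 for 8 animals, so 5 of the 7 were this animal. In CORT lamb 9 the ratio was 0.761 for TNNC2, against 0.493 for 9 animals. In Control fetus 7 it was 0.58 for MYF5, whose probe was well above background in that animal alone, at 6.61 against 6.38 in the next.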

How the results depend on the processing

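No member passed in either cortisol comparison, or in the difference between the ages, under any alternative run. In the comparison of Control lambs with Control fetuses the count of members past the threshold was 1, and 0 with 75th percentile scaling, slide as a block or the replicate block, and 0 to 2 when 1 animal was left out. Scaling to the 75th percentile moved the median of all probes by 0.27 in the fetuses, 0.14 between the ages and -0.26 in the difference, and raised the share of called probes that were higher in lambs from 48.7% to 68.1%. Under it the changes turned to 0.48 for OMYHC2A, 0.54 for OMYHC2X, 0.32 for MYOD1 and 0.63 for MSTN in the fetuses, and to 0.10 for MYOD1 and 0.12 for MSTN between the ages, and r of OMYHCS and TNNC2 in the fetuses to 0.0115. Other changes that turned were small: TNNC2 in lambs to -0.0439 with the scanner's signal and -0.0526 with the mean of probes, OMYHC2X in fetuses to 0.18 with the scanner's signal, OMYHCS in fetuses to -0.00899 with cyclic loess, and MSTN in lambs to 0.00478 with slide as a block.

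Ranges over animals that moved were those of dim genes. With the scanner's signal they were 7.85 and 5.93 for OMYHCS in Control and CORT lambs, and for TNNC2 3.42 in Control lambs, 4.97 in CORT lambs and 0.995 in CORT fetuses, where 75th percentile scaling gave 1.84 and cyclic loess 0.66. Within the first slide of an age r was 0.36 in fetuses and 0.46 in lambs for MB and OMYHCS, 0.50 in lambs for TPM1 and OMYHCS, and -0.0427 in lambs for OMYHCS and TNNC2, and within the second fetal slide 0.74 for OMYHCS and TNNC2. Without Control fetus 2 the fetal r was 0.72 for OMYHCS and TNNC2 and 0.56 for TPM1 and OMYHCS.

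Animals of different groups share only a replicate number: deviations of same-numbered pairs had r from -0.06 to 0.41 in the lambs, -0.19 to 0.42 in the fetuses and -0.23 to 0.24 between the ages. With the replicate block the lamb changes were -0.0681 for MB, -0.10 for TPM1, -0.0723 for OMYHCS, -0.27 for TNNC2 and 0.0109 for MSTN, the fetal change of MSTN was 0.000578, and 1 probe was called in the fetuses.

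With 1 animal left out, changes in lambs ran from -0.35 to 0.86 for MB, -0.25 to 0.62 for TPM1, -0.0158 to 0.80 for OMYHCS, -0.27 to 0.27 for TNNC2, -0.0281 to 0.00895 for MSTN and -0.00374 to 0.0792 for MYOD1. In fetuses they ran from -0.10 to 0.45 for OMYHCS, -1.40 to 0.0741 for TNNC2, -0.45 to 0.20 for OMYHC2A, -0.36 to 0.20 for OMYHC2X and -0.0322 to 0.0074 for MSTN, with 0 to 1 probe called. Between the ages they ran from -1.03 to 0.18 for MB, -1.20 to 0.28 for TNNC2, -0.75 to 0.59 for MYL11, -0.55 to 0.0668 for OMYHC2A, -0.54 to 0.0245 for OMYHC2X and -0.0938 to 0.0637 for MYOD1. The cause of these shifts was not tested.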
